A study of Mus musculus with 9 samples.

Results

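The loci of 10 genes that mark endothelium and blood progenitors were examined in ATAC-seq peak lists of sorted mouse embryonic cells at E9.5. The genes were Kdr, Flt1, Cdh5, Tek, Tie1, Pecam1, Etv2, Tal1, Fli1 and Erg, 10 of 22367 protein-coding genes of the mm9 annotation. They were chosen by name, for what they are known to do, with earlier results of these data known. Each locus was the gene body plus 50 kb on each side, and a peak belonged to it when its midpoint lay in that window. A promoter peak had its midpoint within 1 kb of a transcription start site (TSS) of any gene, and every other peak was called distal. The 10 windows, 103 to 327 kb long, held 101 of the 73341 regions made by merging the peaks of all libraries, of which 85 were distal.

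The study asked how loss of the T-box factor Tbx1 alters open chromatin in Tbx1-lineage cells, and used Mesp1-lineage cells to mark mesoderm. In ATAC-seq a transposase cuts accessible DNA, and a peak is an interval where its cuts pile up. All 9 libraries came from GFP-positive, DAPI-negative cells of pooled Swiss Webster embryos, whose GFP came from a Cre-dependent Rosa26 reporter (Rosa26-GFPflox/+). The 3 Mesp1-Cre Ctrl libraries had the genotype Mesp1Cre;Rosa26-GFPflox/+, and their sorted cells descended from mesoderm. The 3 Tbx1-Cre Ctrl libraries were Tbx1Cre;Rosa26-GFPflox/+, and the 3 Tbx1-Cre cKO libraries were Tbx1Cre/flox;Rosa26-GFPflox/+. The Tbx1-Cre allele sits in the Tbx1 gene itself and, per the study, inactivates the copy that carries it. The Tbx1-Cre Ctrl cells carried this allele too. The Tbx1 lineage spans mesoderm, endoderm and ectoderm. The labels give the tissue as pharyngeal apparatus and heart for Mesp1-Cre, with the back added for both Tbx1-Cre groups, whereas the methods of the study describe dissection without the heart. Tissue, lineage and the Tbx1 genotype therefore cannot be told apart between Mesp1-Cre and Tbx1-Cre libraries.

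Endothelial cells arise from mesoderm under VEGF signalling through its receptor Kdr, and the factor Etv2 starts the programme that makes both endothelial and blood progenitors. Fli1 and Erg, ETS factors like Etv2, maintain that programme, and Tal1 directs cells toward blood. Differentiated endothelium carries the angiopoietin receptor Tek, its relative Tie1 and the junction proteins Cdh5 and Pecam1. Many of these genes are controlled by enhancers in introns or far from the promoter, several of which bind ETS and forkhead factors together.

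The lists differed in length, which touches every count below. They held 19772 to 49490 peaks, of which 27666 to 32193 were distal in Tbx1-Cre Ctrl, 7317 to 14824 in cKO and 11980 to 26510 in Mesp1-Cre. Mesp1-Cre replicate 1 stood apart with 26510 distal peaks against 11980 and 15888 in the other two. Its number of peaks is not among those that the study lists for its Mesp1-Cre libraries, so counts that change without it are given below. Within 10 kb of Tbx1, the targeted gene, every cKO library had 0 peaks, the Tbx1-Cre Ctrl libraries 3, 2 and 2, and each Mesp1-Cre library 1. Own promoters of 10 epithelial genes had a peak for 1 or 2 genes per cKO library and 3 to 6 per Tbx1-Cre Ctrl library, and those of 10 cardiopharyngeal mesoderm genes for 4 to 6 and 7 or 8, while over all genes 55.2% ± 2.67 and 61.5% ± 0.459 had one (SD, n = 3 each). Distal peaks at the epithelial loci went the other way as a portion of the list, from 10.5 to 13.4 per 10000 distal peaks in Tbx1-Cre Ctrl to 18.9 to 26.0 in cKO, and those at the mesoderm loci overlapped. The part of cell makeup in the results below was not tested. Read depth is unknown, and the lists hold no score, so a region without a peak was not shown to be closed.

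The promoters of the 10 genes split into 3 kinds. Kdr and Flt1, the VEGF receptors, had a peak within 1 kb of an own TSS in all 9 libraries, as did 48.6% of all protein-coding genes. Cdh5, Tie1, Pecam1 and Etv2 had none in any library, against 34.0% of all genes. Tek, Tal1, Fli1 and Erg had a promoter peak in some libraries. Promoter peaks in every library were thus held by 2 of the 10 genes, a smaller portion than over the annotation, and the portion without any was near it.

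**Figure D1:**
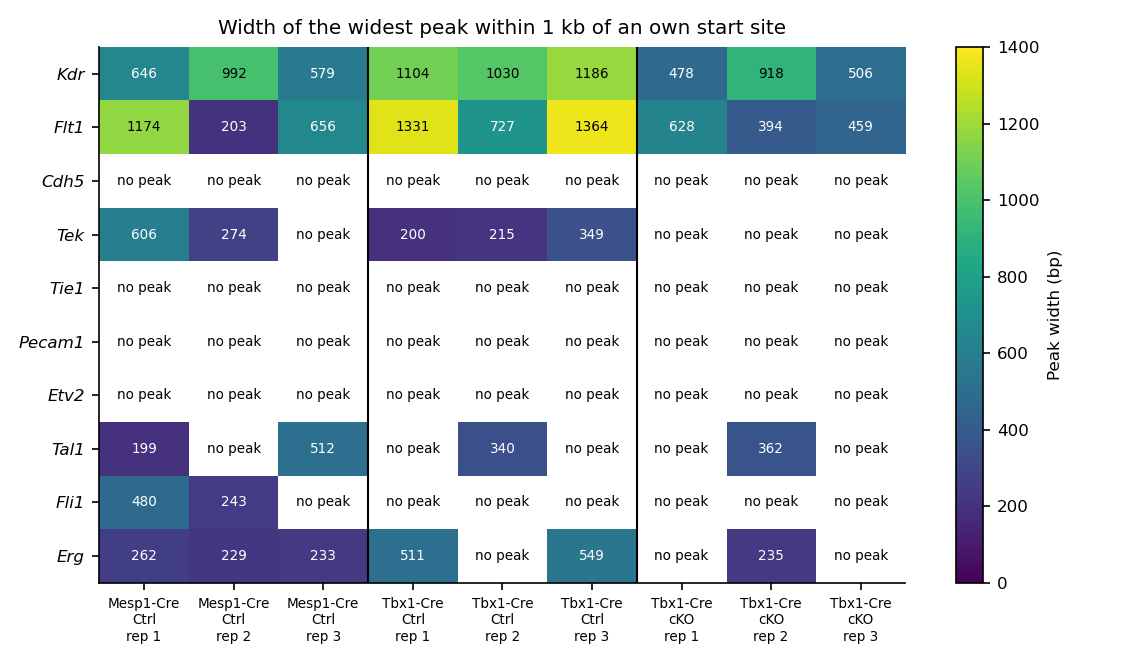
Width in bp (colour and number) of the widest peak within 1 kb of an own TSS for each gene (rows) and library (columns). Kdr and Flt1 had a peak in all 9 libraries, Tek in no cKO library, and Cdh5, Tie1, Pecam1 and Etv2 in none.

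Tek, the angiopoietin receptor, was the 1 gene of the 10 with a promoter peak in all Tbx1-Cre Ctrl libraries and no cKO library. The peaks were 200, 215 and 349 bp wide in Tbx1-Cre Ctrl, 606 and 274 bp in Mesp1-Cre replicates 1 and 2, and absent from Mesp1-Cre replicate 3 and every cKO library. A promoter peak in all 3 Tbx1-Cre Ctrl and no cKO library was held by 2.11% of the genes with a promoter peak in either group. These peaks were among the narrowest at the 10 promoters, down to the 200 bp that is the smallest width in the Tbx1-Cre lists. Within 1 kb of its TSS, Fli1 had a peak only in Mesp1-Cre replicates 1 and 2, 480 and 243 bp wide. A region 1715 bp upstream of that TSS counted as distal. It had a peak in 3 Tbx1-Cre Ctrl, 1 Mesp1-Cre and no cKO libraries, so the Fli1 call depended on the 1 kb limit. Erg had one in all 3 Mesp1-Cre libraries (262, 229 and 233 bp), in Tbx1-Cre Ctrl replicates 1 and 3 (511 and 549 bp) and in cKO replicate 2 (235 bp). The Tal1 promoter had a peak in Mesp1-Cre replicates 1 and 3, Tbx1-Cre Ctrl replicate 2 and cKO replicate 2, 199 to 512 bp wide.

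The call at Etv2 depended on the 1 kb limit as well. A region over an Etv2 exon, chr7:31419594-31420178 (mm9), had its midpoint 1280 bp downstream of the nearest Etv2 TSS and counted as distal. It had a peak in 2 Mesp1-Cre, 3 Tbx1-Cre Ctrl and 1 cKO libraries, and the nearest peak edge lay 988 bp from the TSS. At Cdh5, Tie1 and Pecam1 the nearest peak edge in any library lay 2416, 11941 and 6744 bp from an own TSS.

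At the VEGF receptors the promoter stayed in every list but its widest peak was narrower in cKO. The widest Kdr promoter peak measured 1104, 1030 and 1186 bp in Tbx1-Cre Ctrl and 478, 918 and 506 bp in cKO. These groups did not overlap, and the means were 1107 ± 78.0 bp for Tbx1-Cre Ctrl and 634 ± 246 bp for cKO (n = 3, SD; exact permutation test, two-sided, p = 0.1). The widest Flt1 promoter peak measured 1331, 727 and 1364 bp in Tbx1-Cre Ctrl and 628, 394 and 459 bp in cKO, again without overlap (exact permutation p = 0.1). With 3 libraries against 3 the smallest p is 0.1, so no difference here can pass 0.05. Of all promoters with a peak in the 6 Tbx1-Cre libraries, 39.0% were narrower in every cKO than in every Tbx1-Cre Ctrl library, and the median difference over them was -179 bp, against -473 bp at Kdr and -647 bp at Flt1. Some lists held 2 peaks at these promoters, namely cKO replicates 1 and 3 at Kdr, and cKO replicates 1 and 2 and Tbx1-Cre Ctrl replicate 2 at Flt1. With all own-promoter peaks summed, Kdr measured 678, 918 and 760 bp in cKO, a difference of -321 bp, and Flt1 828, 763 and 459 bp, a difference of -555 bp. Neither overlapped Tbx1-Cre Ctrl (exact permutation p = 0.1 for both), as was so for 42.3% of promoters, whose median difference was -198 bp. In Mesp1-Cre the Kdr peak measured 646, 992 and 579 bp, narrower than every Tbx1-Cre Ctrl peak, as were 17.5% of promoters in that comparison. The Flt1 peak of 1174, 203 and 656 bp in Mesp1-Cre overlapped the Tbx1-Cre Ctrl widths.

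A majority of the 10 loci held fewer distal peaks in every cKO list. Every cKO library had fewer than every Tbx1-Cre Ctrl library at 6 of 10 loci (Kdr, Cdh5, Etv2, Tal1, Fli1 and Erg) and none had more, against 26.0% of 17949 genes with fewer and 0.0501% with more. Among genes with as many distal peaks as these loci (a mean of 1.5 to 6.17 over the 6 libraries) the share with fewer was 37.6%. Each of the 10 means was lower in cKO, as were those of 16284 of the 17949 genes. The median difference was -2.83 peaks per locus, against -1 over all genes. That median was not taken for genes with as many distal peaks as these loci. In such pools of cells, fewer cells of a type and less open chromatin per cell cannot be told apart.

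**Figure D2:**
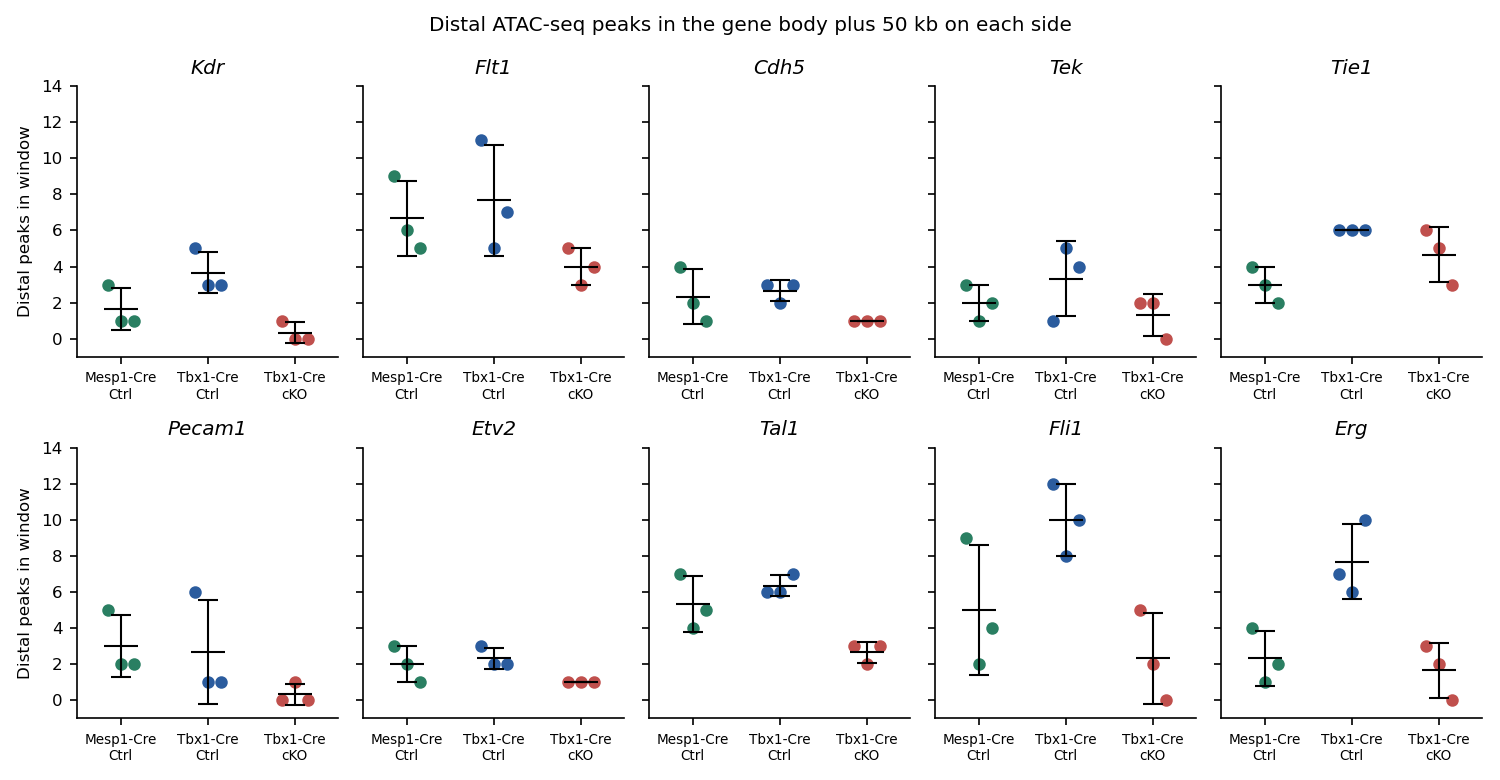
Distal peaks in each locus (y axis, number of peaks) for the 3 libraries of each group (points), with the mean and SD (black). All 3 cKO points lie below all 3 Tbx1-Cre Ctrl points at Kdr, Cdh5, Etv2, Tal1, Fli1 and Erg.

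The widest gaps in the number of distal peaks were at the ETS factor loci Fli1 and Erg. Their windows were among the longer ones. Relative to the Tbx1-Cre Ctrl mean, the fall in cKO was larger at Kdr and Pecam1. Mean counts went from 3.67 to 0.333 at Kdr and from 2.67 to 0.333 at Pecam1, where the groups overlapped. They went from 10 to 2.33 at Fli1 and from 7.67 to 1.67 at Erg. Fli1, an ETS factor of endothelium and blood, had 12, 8 and 10 distal peaks in Tbx1-Cre Ctrl and 5, 2 and 0 in cKO, a difference in means of -7.67. Erg, its close relative, had 7, 6 and 10 against 3, 2 and 0, a difference of -6. At Tal1, the blood-forming helix-loop-helix factor, the counts were 6, 6 and 7 against 3, 2 and 3. These 3 loci separated the groups, with an exact permutation p of 0.1 and an adjusted p of 0.383 over all genes. Etv2 had 3, 2 and 2 distal peaks in Tbx1-Cre Ctrl and 1 in each cKO library. In cKO replicates 1 and 3 that peak lay 1289 bp from a Zbtb32 TSS, and in replicate 2 over the Etv2 exon. Etv2 no longer separated the groups with a flank of 10 kb (a difference of -0.667) or with distal set at over 2 kb from a TSS (-0.333).

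Among the receptors and junction genes, Kdr had 5, 3 and 3 distal peaks in Tbx1-Cre Ctrl and 1, 0 and 0 in cKO. Cdh5, VE-cadherin, had 3, 2 and 3 against 1 in each cKO library. The single cKO peak of the Cdh5 window was a region inside the neighbouring Bean1, 90104 bp from the Cdh5 TSS, so no cKO list had a distal peak nearer to Cdh5 within the window. With the widest 75% of each list the Cdh5 groups overlapped. Both loci had an exact permutation p of 0.1. At the other 4 loci the groups overlapped. Flt1 had 11, 5 and 7 against 5, 3 and 4, Tek 1, 5 and 4 against 2, 2 and 0, Pecam1 6, 1 and 1 against 0, 1 and 0, and Tie1 6, 6 and 6 against 6, 5 and 3. Their exact permutation p-values ran from 0.2 to 0.4. Tie1 had the smallest relative fall of the 10, from 6 ± 0 to 4.67 ± 1.53 peaks (SD, n = 3 each). cKO replicate 3, the shortest list, had 0 distal peaks at Kdr, Tek, Pecam1, Fli1 and Erg. Leaving out any 1 library gave 6 to 8 loci with fewer in every cKO library, for which the share of all genes was not counted.

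Set against the length of each list, the 10 loci together took a similar portion of distal peaks in all groups. They held 60, 44 and 53 distal peaks in Tbx1-Cre Ctrl, 27, 19 and 12 in cKO and 51, 24 and 25 in Mesp1-Cre. Per 10000 distal peaks of the library this was 18.6, 15.9 and 17.1 in Tbx1-Cre Ctrl, 18.2, 18.6 and 16.4 in cKO, and 19.2, 20.03 and 15.7 in Mesp1-Cre. The means of 17.2 ± 1.37, 17.7 ± 1.16 and 18.3 ± 2.29 (SD, n = 3 each) differed by less than the spread within Mesp1-Cre. The 6 receptor and junction loci took 7.73 to 9.94 per 10000 in Tbx1-Cre Ctrl and 10.1 to 11.7 in cKO, without overlap, whereas the 4 factor loci took 7.95 to 9.34 and 5.47 to 8.09, which overlapped. Without Tie1 the other 5 receptor and junction loci took 5.78 to 8.08 and 6.07 to 6.84, which overlapped too. These sums were not tested, since the genes were chosen as a list.

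**Figure D3:**
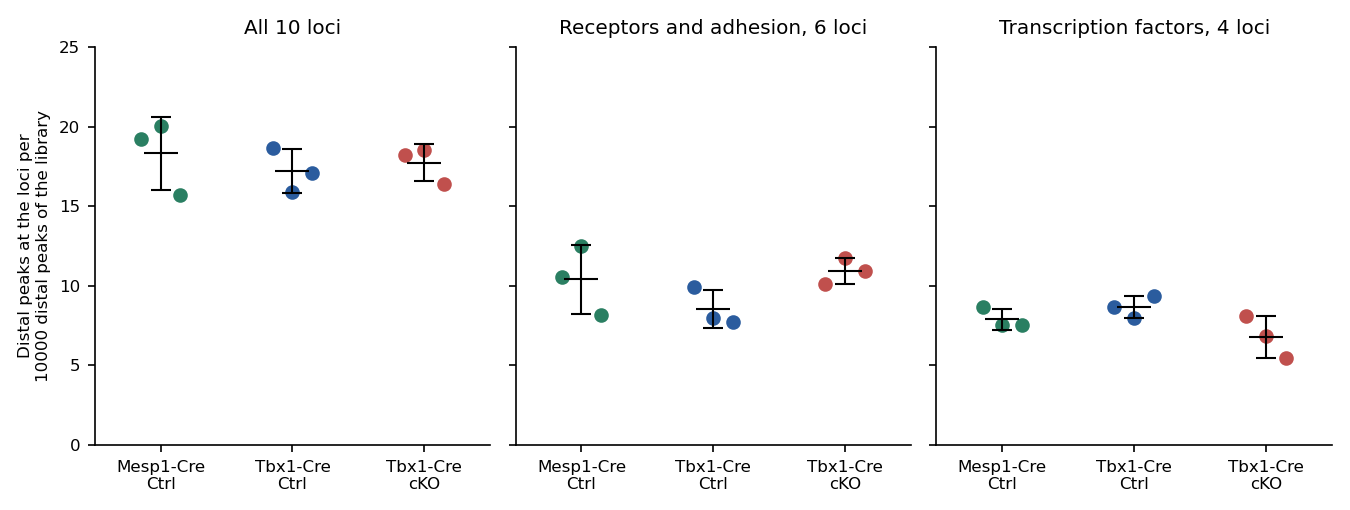
Distal peaks at the loci per 10000 distal peaks of the library (y axis) for all 10 loci, the 6 receptor and junction loci and the 4 factor loci; points are libraries, black marks the mean and SD. For all 10 loci the libraries of the 3 groups overlap between 15.7 and 20.03.

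Locus by locus, the share of the list was lower in every cKO than in every Tbx1-Cre Ctrl library at Kdr and Erg, 2 of 10 loci, against 7.77% of all genes. It was higher at Tie1, 1 of 10, against 15.1%. Next, only the 19772 widest peaks of each library were kept, so that all lists had the length of the shortest. No locus then had fewer peaks in every cKO library (2.27% of genes did). Etv2 had more, 1 in each cKO and 0 in each Tbx1-Cre Ctrl library (2.13%). This cut left cKO replicate 3 whole and removed wider peaks from the longer Tbx1-Cre Ctrl lists. Over the Etv2 exon it removed peaks of 538, 435 and 491 bp in Tbx1-Cre Ctrl and kept 1 of 454 bp in cKO replicate 2. The Etv2 excess cannot be told apart from this unequal cut. In the lists of equal length Fli1 had 6, 4 and 2 distal peaks in Tbx1-Cre Ctrl and 3, 1 and 0 in cKO. Erg had 3, 3 and 1 against 2, 2 and 0, and both overlapped. Tal1 changed direction, with 1, 3 and 1 against 1, 2 and 3. The separation of the 6 loci was thus seen in counts. The share of all genes with fewer fell as well, from 26.0% in the full lists to 2.27% in lists of equal length. The part of list length in the separation was not tested.

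The Mesp1-Cre libraries asked where these loci were open in mesoderm. Fewer distal peaks in every Mesp1-Cre than in every Tbx1-Cre Ctrl library were found at Tie1 and Erg, 2 of 10 loci against 11.1% of genes, and more at 0 of 10 against 0.397%. Erg had 4, 1 and 2 distal peaks in Mesp1-Cre, a difference in means of -5.33. Tie1 had 4, 3 and 2 against 6 in each Tbx1-Cre Ctrl library. Both had an exact permutation p of 0.1 and an adjusted p of 0.868. Without Mesp1-Cre replicate 1, the long list, Kdr, Tal1 and Fli1 joined them (5 of 10), and without Tbx1-Cre Ctrl replicate 1 Pecam1 had more in Mesp1-Cre. Fewer libraries separate more easily, and the share of all genes was not counted for these smaller sets. As a share of the list, Tal1 was higher in every Mesp1-Cre library (12.4% of genes were) and Erg lower (6.07%). In lists of equal length, for which Tbx1-Cre Ctrl was cut most, Tek and Etv2 had more in Mesp1-Cre (3.68% of genes did). No locus had fewer (3.59%).

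Against cKO, the other short lists, Mesp1-Cre had more distal peaks in every library at Pecam1 and Tal1, 2 of 10 loci against 6.85% of genes, and fewer at 0 of 10 against 0.302%. Pecam1, the platelet endothelial adhesion molecule, had 5, 2 and 2 in Mesp1-Cre and 0, 1 and 0 in cKO. Tal1 had 7, 4 and 5 against 3, 2 and 3. The exact permutation p was 0.1 for both, and the adjusted p was 1. Without Mesp1-Cre replicate 1 the Pecam1 difference fell from 2.67 to 1.67 peaks. The count rose to 5 loci without Mesp1-Cre replicate 3 and to 4 without cKO replicate 1. With libraries of the same number in the labels compared as pairs, 4 loci (Kdr, Flt1, Pecam1 and Tal1) had more in Mesp1-Cre in all 3 pairs and Tie1 had fewer. Both alternatives are easier to meet, and the share of all genes was not counted for them. As a share of the list Pecam1 was higher in Mesp1-Cre (5.49% of genes were) and Tie1 lower (7.90%). Flt1 had 9, 6 and 5 distal peaks in Mesp1-Cre, Fli1 9, 2 and 4, Cdh5 4, 2 and 1, Tek 3, 1 and 2, Kdr 3, 1 and 1, and Etv2 3, 2 and 1, all overlapping the cKO counts. The 3 comparisons share libraries and are not independent.

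Region by region, 73 of the 85 distal regions had a peak in a Tbx1-Cre Ctrl library, 54 in a Mesp1-Cre and 32 in a cKO library. Of these, 35 lay within the gene body, 21 upstream and 29 downstream, and 50 had a TSS of one of the 10 genes as their nearest. A peak in 1 library only was found at 25 regions (37.8% over the genome for distal regions). Of the 85 regions, 24 had peaks in Tbx1-Cre Ctrl libraries only (38.2% over the genome), 11 in Mesp1-Cre only (14.3%) and 1 in cKO only (1.94%).

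**Figure D4:**
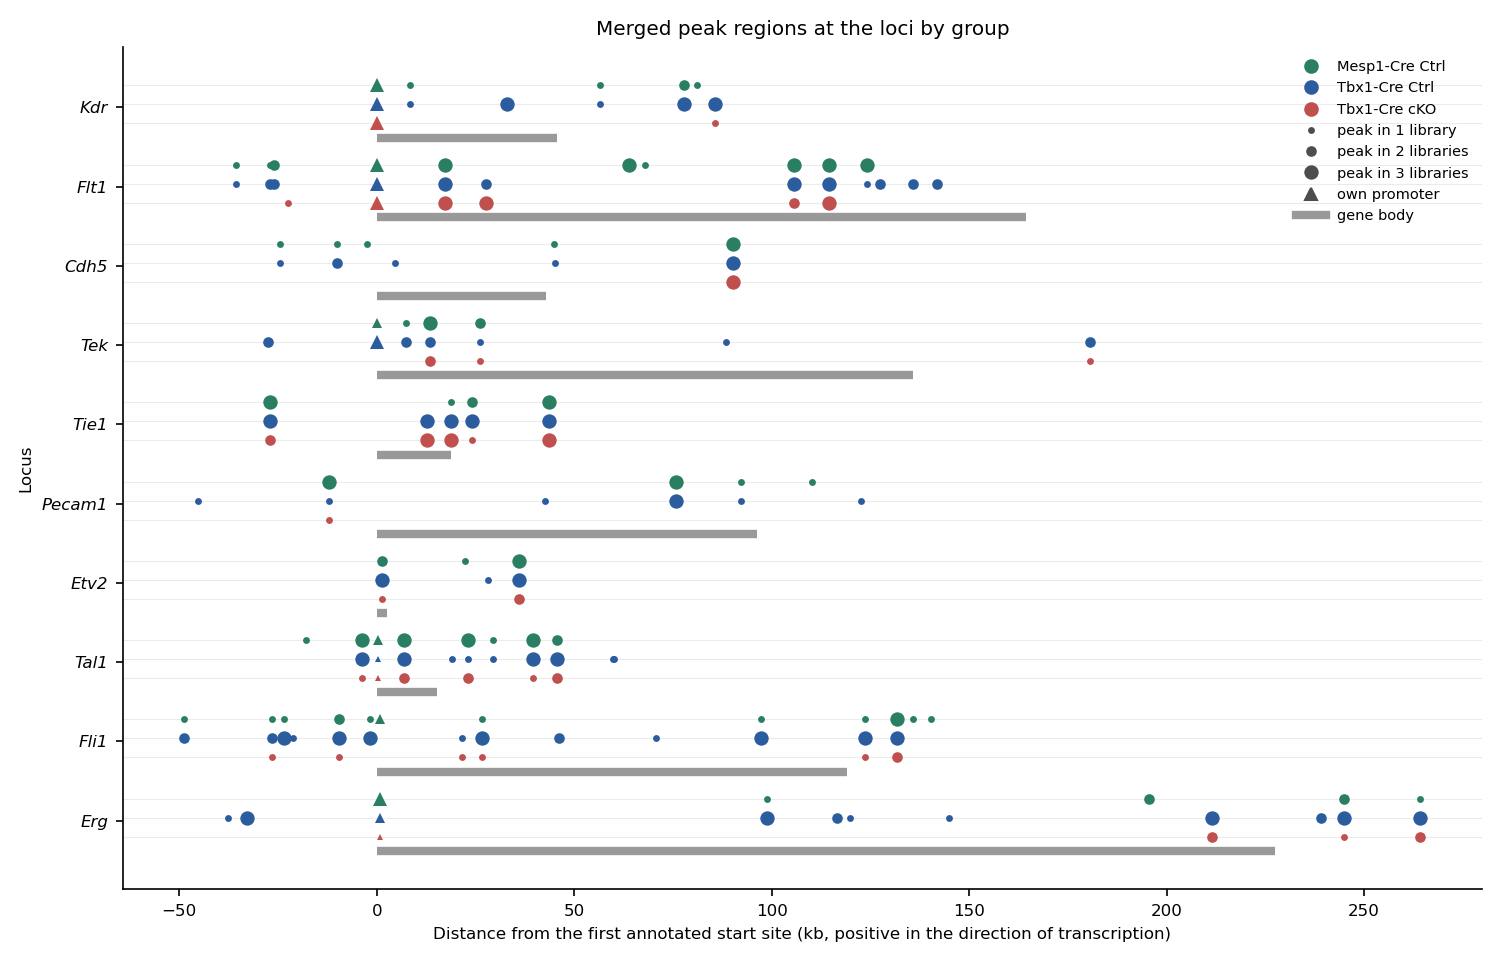
Regions of the 10 loci by distance of their midpoint from the first annotated TSS (x axis, kb), in 3 lanes per gene for the groups; dot size gives the number of libraries with a peak, triangles are own promoters and grey bars gene bodies. The cKO lane has the fewest dots of the 3 lanes at every locus but Tie1 and Tek. At Tek it has as many dots as the Mesp1-Cre lane. A Tie1 intron region has dots in both Tbx1-Cre lanes and none in the Mesp1-Cre lane.

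A peak in all 9 libraries was found at 4 distal regions (5.99% of distal regions over the genome). Flt1 held 2 of them in introns. At chr5:148519905-148520659, 17282 bp into the gene from the nearest Flt1 TSS, peaks covered 678, 726 and 693 bp in Tbx1-Cre Ctrl, 277, 326 and 297 bp in cKO and 517, 216 and 541 bp in Mesp1-Cre. The cKO peaks were narrower without overlap (exact permutation p = 0.1). At chr5:148422820-148423386 the groups overlapped, with 526.7 ± 29.0 bp for Tbx1-Cre Ctrl and 510.0 ± 48.1 bp for cKO (n = 3, SD). This region lies 3715 bp from an internal Flt1 TSS. A further one was chr8:106715235-106716023 in Bean1, within the Cdh5 window, with 652, 779 and 626 bp in Tbx1-Cre Ctrl and 314, 386 and 532 bp in cKO (exact permutation p = 0.1). In all, 3 of the 4 regions were narrower in every cKO than in every Tbx1-Cre Ctrl library, against 52.2% of such regions over the genome.

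Present in all 3 Tbx1-Cre Ctrl and no cKO library were 8 distal regions (9.30% over the genome, of regions with a peak in either group), and none was in all 3 cKO and no Tbx1-Cre Ctrl library (0.0148%). Kdr held 2, an intron region at chr5:76341396-76341710 and chr5:76296430-76297103 downstream of the gene. Pecam1 held an intron region at chr11:106535836-106536451. Fli1 held 3, in an intron at chr9:32251302-32251998 and upstream at chr9:32350354-32351024 and chr9:32372093-32372675, at 1715 and 23410 bp from its TSS. Erg held an intron region at chr16:95709000-95709565 and an upstream one at chr16:95840777-95841338. Leaving out cKO replicate 1 or Tbx1-Cre Ctrl replicate 2 raised the 8 to 14.

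The Mesp1-Cre libraries divided these 8 regions. The Pecam1 intron region had a peak in all 3 Mesp1-Cre libraries, covering 429, 277 and 414 bp, next to 402, 575 and 428 bp in Tbx1-Cre Ctrl. The downstream Kdr region had one in Mesp1-Cre replicates 1 and 2, and each of the 3 Fli1 regions and the Erg intron region in 1 Mesp1-Cre library. The Kdr intron region and the upstream Erg region had no peak outside Tbx1-Cre Ctrl.

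Regions of all 3 Mesp1-Cre and no cKO libraries numbered 3 (5.06%), namely the Pecam1 region and 2 Flt1 intron regions. Leaving out Mesp1-Cre replicate 3 or cKO replicate 2 raised this to 5. The Flt1 region chr5:148473330-148473871 was the 1 distal region in all 3 Mesp1-Cre and no Tbx1-Cre Ctrl library (0.947%), with peaks of 381, 289 and 312 bp. Without Tbx1-Cre Ctrl replicate 1 there were 4 and without Mesp1-Cre replicate 2 there were 2. The other Flt1 region, chr5:148413107-148413972, covered 844, 435 and 677 bp in Mesp1-Cre and 200 bp in Tbx1-Cre Ctrl replicate 1 alone.

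The opposite pattern, all 3 Tbx1-Cre Ctrl and no Mesp1-Cre library, was found at 5 regions (7.10%), of which 3 belonged to Kdr or Tie1 and 2 to Erg. A Tie1 intron region, chr4:118149535-118150419, had peaks of 791, 724 and 810 bp in Tbx1-Cre Ctrl and of 581, 224 and 226 bp in cKO, and none in Mesp1-Cre. It was 1 of 2 regions in all 3 cKO and no Mesp1-Cre library (0.513%). The second was chr5:148509619-148510155 in a Flt1 intron. An Erg intron region, chr16:95596073-95597063, covered 920, 658 and 788 bp in Tbx1-Cre Ctrl and was in cKO replicates 1 and 2. A region downstream of Kdr, chr5:76288519-76289219, was in all 3 Tbx1-Cre Ctrl libraries and cKO replicate 1.

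Tal1 held no region restricted in this way. Of its 10 distal regions, 5 had a cKO peak. The first of these 5 lay 3673 bp upstream of the first TSS (3 Mesp1-Cre, 3 Tbx1-Cre Ctrl and 1 cKO libraries). The others lay 6807 bp (3, 3 and 2), 23241 bp (3, 1 and 2), 39594 bp (3, 3 and 1) and 45556 bp (2, 3 and 2) downstream of it. Of these 5, the outer 3 lay past the gene, and the farthest pair beyond the start of Pdzk1ip1. Tal1 is known for an upstream enhancer active in endothelium and an erythroid enhancer on the far side of Pdzk1ip1, and whether these regions are those elements was not tested.

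For each gene with a group-restricted region, the one with the largest mean width over the libraries that held a peak is given in mm9, as 300 bases of the plus strand around its midpoint. The 300 bases just upstream of the Tek TSS are given too, since its promoter peaks separated the groups. They reach only partly into the merged Tek promoter region, chr4:94405813-94406518. Capitals mark matches on either strand to 6 motifs. These were the joint forkhead and ETS site AACAGGAA, the ETS sites CGGAAG, with its variant AGGAAG, the GATA site AGATAA, the E-box CAGCTG, bound by factors such as Tal1, and the T-box site AGGTGTGA. The first may share letters with the ETS sites.
Kdr downstream, chr5:76296617-76296916: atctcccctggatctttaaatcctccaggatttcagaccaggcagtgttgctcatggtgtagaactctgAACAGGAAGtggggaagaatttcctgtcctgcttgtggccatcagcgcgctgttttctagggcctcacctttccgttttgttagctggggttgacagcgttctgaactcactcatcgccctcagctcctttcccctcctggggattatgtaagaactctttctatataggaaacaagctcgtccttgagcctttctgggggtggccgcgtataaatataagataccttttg
Flt1 intron, chr5:148413390-148413689: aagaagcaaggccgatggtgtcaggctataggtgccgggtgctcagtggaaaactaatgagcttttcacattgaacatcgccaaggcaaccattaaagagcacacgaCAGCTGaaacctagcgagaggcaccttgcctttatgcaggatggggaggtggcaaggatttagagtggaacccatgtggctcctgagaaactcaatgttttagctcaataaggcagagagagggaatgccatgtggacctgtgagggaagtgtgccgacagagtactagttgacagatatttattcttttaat
Tie1 intron, chr4:118149828-118150127: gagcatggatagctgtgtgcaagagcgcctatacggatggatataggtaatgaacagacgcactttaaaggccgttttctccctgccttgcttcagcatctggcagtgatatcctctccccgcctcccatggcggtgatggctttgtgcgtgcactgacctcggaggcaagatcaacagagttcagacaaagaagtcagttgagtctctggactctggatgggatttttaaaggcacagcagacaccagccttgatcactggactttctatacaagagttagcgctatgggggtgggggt
Pecam1 intron, chr11:106535994-106536293: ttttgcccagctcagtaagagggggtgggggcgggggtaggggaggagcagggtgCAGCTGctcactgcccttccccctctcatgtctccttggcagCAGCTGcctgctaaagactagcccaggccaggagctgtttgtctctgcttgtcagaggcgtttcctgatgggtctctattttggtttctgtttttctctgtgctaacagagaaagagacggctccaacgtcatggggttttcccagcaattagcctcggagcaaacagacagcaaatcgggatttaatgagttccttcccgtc
Fli1 intron, chr9:32251501-32251800: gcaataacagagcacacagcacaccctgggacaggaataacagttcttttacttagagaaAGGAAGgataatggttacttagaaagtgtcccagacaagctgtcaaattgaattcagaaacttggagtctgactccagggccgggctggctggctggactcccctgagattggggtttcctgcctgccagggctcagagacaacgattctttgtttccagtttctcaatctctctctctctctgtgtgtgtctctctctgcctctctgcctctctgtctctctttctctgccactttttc
Erg intron, chr16:95596419-95596718: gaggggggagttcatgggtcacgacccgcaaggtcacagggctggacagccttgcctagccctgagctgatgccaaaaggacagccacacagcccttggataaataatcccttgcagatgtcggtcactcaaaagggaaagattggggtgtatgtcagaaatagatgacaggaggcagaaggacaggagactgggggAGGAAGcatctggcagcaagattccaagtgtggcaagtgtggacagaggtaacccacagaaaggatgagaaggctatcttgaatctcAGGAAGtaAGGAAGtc
Tek promoter, chr4:94405680-94405979: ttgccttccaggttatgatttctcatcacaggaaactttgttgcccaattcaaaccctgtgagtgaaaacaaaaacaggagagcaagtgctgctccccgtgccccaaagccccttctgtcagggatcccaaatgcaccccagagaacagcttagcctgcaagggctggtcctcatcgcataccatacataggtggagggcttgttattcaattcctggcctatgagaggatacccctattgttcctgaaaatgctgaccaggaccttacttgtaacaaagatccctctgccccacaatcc
The Kdr sequence, downstream of the gene, holds the joint site AACAGGAA, whose end overlaps an ETS site. The other restricted region downstream of Kdr, chr5:76288519-76289219, longer once merged but with narrower peaks, held none of the 6 motifs in its central 300 bases. The Pecam1 intron sequence holds CAGCTG at 2 places and the Flt1 intron sequence at 1. The Erg sequence holds AGGAAG at 3 places and the Fli1 sequence at 1. None of the 6 motifs matched the Tie1 or Tek sequence, which says only that these letters are not in those windows.

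The share of distal regions with each motif lay near that over the genome. AACAGGAA was in 4 of 85 distal regions (4.71%, against 3.49% of 55122 distal regions over the genome), AGGAAG in 31 (36.5% against 38.6%) and CGGAAG in 5 (5.88% against 6.92%). AGATAA was in 11 (12.9% against 15.2%), CAGCTG in 25 (29.4% against 25.3%) and AGGTGTGA in 1 (1.18% against 1.04%). A match is a description of the letters and not of binding.

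Other genes of the same cells were counted in the same way. Of 20 further endothelial genes, 9 had fewer distal peaks in every cKO than in every Tbx1-Cre Ctrl library, and none had more. Among the 9 were Cd34, Sox18, Ets1, Robo4 and Ptprb. Ets1 is a neighbour of Fli1, and a distal region of the Fli1 window lay 46156 bp from an Ets1 TSS. Over all genes 26.0% had fewer and 0.0501% more. Among genes with as many distal peaks as the 10 loci, 37.6% had fewer, and no share was counted for genes matched to these 20. The median difference of the 20 was -2.67 peaks, next to -2.83 for the 10 genes and -1 over all genes. Of 12 further blood genes 3 had fewer (Gata2, Runx1 and Spi1), near the portion over all genes, with a median of -1.17. As a share of the list, 1 endothelial gene was lower and 1 higher, and 3 blood genes were higher and none lower. Over all genes 7.77% were lower and 15.1% higher. Own promoters had a peak in all 9 libraries at 6 of the 20 endothelial genes and 4 of the 12 blood genes, and in none at 1 and 5. Over all genes these portions were 48.6% and 34.0%. Against Tbx1-Cre Ctrl, Mesp1-Cre had fewer distal peaks at 4 of 20 and 2 of 12, and more at none. In that comparison 11.1% of all genes had fewer and 0.397% more.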

How the data were processed

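The files were peak lists of 9 ATAC-seq libraries, 3 per group, with a chromosome, a start and an end for each peak. Per the labels and the published methods, the authors used cutadapt on the reads, aligned them to mm9 with Bowtie2 2.3.4.3, kept unique concordant pairs without duplicates or mitochondrial reads, and ran MACS2 on each library by itself. The deposited values are therefore positions in bp, with no reads or scores, and depth is unknown. The study calls the libraries biological replicates, of pooled embryos. Its results name fewer of them than its methods do, and all 3 per group were used. The length of the Mesp1-Cre replicate 1 list is not among those the study gives for these libraries, and the other Mesp1-Cre lists bear other numbers there than in the labels, so pairs by the study's numbers would differ. The p-values measure the spread between these libraries.

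Here 2 mitochondrial intervals in each Mesp1-Cre list were left out, although the methods describe the removal of mitochondrial reads. The Tbx1-Cre lists held none. The narrowest peak was 199 bp in the Mesp1-Cre lists and 200 bp in the Tbx1-Cre lists. Whether these lists were processed alike is unknown. Genes and TSS came from GENCODE vM1 on NCBIM37 (mm9). Symbols were matched by name or by an older symbol in a RefSeq table, and all 10 genes and all 52 genes of the other lists were found. Distal peaks were counted per locus in each library. A locus was called when the libraries of both groups did not overlap, and the share of all genes with a distal peak that were called is given beside it. Differences in means were tested with an exact two-sided permutation test over 20 relabellings (smallest p 0.1), adjusted by Benjamini-Hochberg over all genes. No gene had an unadjusted p under 0.05. The count model of the study needs reads and was not run. Peaks of all libraries were merged by an overlap of 1 bp.

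Named genes were all 10. Named regions were distal regions with a peak in all 9 libraries (1 is not reported here), or in all 3 of a group and none of another; sequences were taken for the restricted region with the largest mean width per gene. The genes and lists were chosen with earlier results of these data known. Same-numbered libraries of Mesp1-Cre and cKO deviated together in distal peaks (correlations across genes 0.473, 0.119 and 0.121), so paired values are given for that comparison, although Mesp1-Cre replicate 2 followed cKO replicate 3 more closely (0.444); as a share of the list they did not (0.214, -0.00318 and -0.00861). The other pairs of groups did not meet a correlation of 0.1 in every pair. Alternatives were other windows, promoter limits, overlaps, widest peaks only, and each library left out. Calculations used Python 3.11.15 and numpy 2.4.6, plots matplotlib 3.10.9, and the procedures were tested on simulated data.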

Additional observations from a re-analysis of the deposited data

How the results depend on the processing

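Most of the counts changed when the lists were made equal in length. In lists of equal length, 0 loci had fewer distal peaks in every cKO than in every Tbx1-Cre Ctrl library (6 as reported), 2 had more and 0 fewer in Mesp1-Cre than in Tbx1-Cre Ctrl (0 and 2), and 0 had more in Mesp1-Cre than in cKO (2). There, where the longer Tbx1-Cre Ctrl lists lost the most peaks, Etv2 and Tal1 turned to cKO minus Tbx1-Cre Ctrl differences of 1 and 0.333 peaks. As a share of the list these counts were 2, 1, 1 and 1. With the widest 75% of the peaks, 1 locus had more in Mesp1-Cre than in cKO. The replicate block (same-numbered pairs) gave 7 loci with fewer in cKO, and 4 with fewer in Mesp1-Cre than in Tbx1-Cre Ctrl and 4 with more in Mesp1-Cre than in cKO in place of 2 each. Leaving out a library gave 6 to 8, 0 to 1, 2 to 5 and 2 to 5 for the 4 counts. Without a library or in pairs, the share of all genes was not counted.

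Regions in all 3 Tbx1-Cre Ctrl and no cKO library (8) numbered 5 with a flank of 10 kb, 13 with 100 kb, 0 in lists of equal length and 13 with an overlap of 50% of the region, and 9 to 14 without a library. Those in all 3 Mesp1-Cre and no Tbx1-Cre Ctrl library (1) numbered 4 in equal lists, 2 with the widest 75% and 2 with 50% overlap, and 1 to 4 without a library. Those in all 3 Mesp1-Cre and no cKO library (3) numbered 1 in equal lists and 5 with the widest 75%, and 3 to 5 without a library. The sum over the 10 loci per 10000 distal peaks differed between cKO and Tbx1-Cre Ctrl by 0.520, and by -0.946 with the widest 75%. Counting only peaks whose nearest TSS was that of the gene itself, a choice made after seeing the data, left 6 loci with fewer in cKO, with Pecam1 in place of Etv2. The same exchange was seen with a flank of 10 kb and with distal set at over 2 kb, and with the widest 75% Flt1 took the place of Cdh5. Summing own-promoter peaks, also chosen after seeing the data, kept both VEGF receptors narrower in cKO. Of 450 single-gene values under alternatives, 362 kept direction and call. The cause of each change was not tested.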
